A study of Mus musculus with 24 samples.

Results

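Small nucleolar RNAs (snoRNAs) and the related RNAs of Cajal bodies (scaRNAs) were followed across the 23 libraries of a study of mice that lack Nudt12, a hydrolase of NAD, NADH and NAD-capped RNA. The RNAs described here were chosen by level: they are the genes annotated as snoRNA or scaRNA whose mean normalized level reached 5 in liver, kidney or the liver time course. These were 106 of the 1416 genes of both types, and of 50765 genes in all. Of the 106, 93 were annotated as snoRNA and 13 as scaRNA. The rule used the overall level, so levels are given as a description. Labels of genotype and time of day did not enter the rule, but the comparisons used the same library values. An RNA near the threshold could therefore have been kept because its level was high in only some of the libraries.

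Knockout mice (Nudt12-/-) carried a deletion of 58 bp in exon 6 of Nudt12, made with Cas9 in embryos of the B6D2F1/J hybrid, whose founders were crossed with C57BL/6J; all knockouts came from 1 mouse line, and the controls were wild type (Nudt12+/+). Liver (3 wild-type and 3 knockout libraries) and kidney (2 wild-type and 3 knockout libraries) were taken at 3 to 4 months, and the labels give no time of day for them. The time course held livers of mice aged 4 to 6 months, kept for 10 days in 12 h of light and 12 h of dark and taken every 4 h at ZT0, ZT4, ZT8, ZT12, ZT16 and ZT20 (hours after lights on), with 1 wild-type and 1 knockout library at each time. Nothing in the labels says that libraries of a group came from separate animals, so p-values measure the spread between these libraries.

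Most vertebrate snoRNAs are cut out of introns of host genes and work in particles with a fixed set of proteins. Box C/D snoRNAs, bound by fibrillarin, guide the methylation of ribose in ribosomal RNA, and box H/ACA snoRNAs, bound by dyskerin, guide the conversion of uridine to pseudouridine. The Cajal body RNAs direct the same modifications in the small nuclear RNAs of the spliceosome. A few members (among them the U3, U8 and U17 RNAs) take part in the cleavage or folding of the ribosomal RNA precursor instead.

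The sequences below belong to the RNAs on which the results turn: the most abundant U3 gene, the U17 pair, the RNAs with the smallest p-values in liver and kidney, and an abundant Cajal body RNA. They are printed 5′ to 3′ as DNA from GENCODE vM21 (GRCm38), with capitals marking ACA exactly 3 bases before the 3′ end, NTGATGA within the first 25 bases together with CTGA within the last 20 bases, or, in the U3 gene, CTGA near the 3′ end; Gm26447 held none of these in its windows.
Rnu3b2: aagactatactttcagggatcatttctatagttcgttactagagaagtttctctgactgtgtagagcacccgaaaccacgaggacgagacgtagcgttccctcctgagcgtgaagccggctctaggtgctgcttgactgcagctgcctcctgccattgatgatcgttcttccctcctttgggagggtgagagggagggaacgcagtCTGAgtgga
Snora73a: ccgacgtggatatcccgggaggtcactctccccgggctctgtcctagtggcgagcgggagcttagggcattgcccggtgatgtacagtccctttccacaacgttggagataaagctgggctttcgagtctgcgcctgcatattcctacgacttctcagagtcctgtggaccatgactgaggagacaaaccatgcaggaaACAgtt
Snora73b: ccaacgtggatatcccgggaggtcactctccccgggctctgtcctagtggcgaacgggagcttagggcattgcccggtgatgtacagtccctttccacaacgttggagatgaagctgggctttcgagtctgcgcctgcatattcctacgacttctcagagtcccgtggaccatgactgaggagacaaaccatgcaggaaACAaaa
Gm26447: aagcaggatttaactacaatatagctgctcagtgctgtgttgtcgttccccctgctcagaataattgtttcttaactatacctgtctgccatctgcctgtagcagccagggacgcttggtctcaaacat
Gm26397: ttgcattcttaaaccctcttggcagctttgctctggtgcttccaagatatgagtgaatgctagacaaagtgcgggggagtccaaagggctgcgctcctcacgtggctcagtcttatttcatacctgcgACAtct
Snora7a: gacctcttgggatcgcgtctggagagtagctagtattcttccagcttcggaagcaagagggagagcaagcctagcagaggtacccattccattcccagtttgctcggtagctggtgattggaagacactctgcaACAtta
Gm22748: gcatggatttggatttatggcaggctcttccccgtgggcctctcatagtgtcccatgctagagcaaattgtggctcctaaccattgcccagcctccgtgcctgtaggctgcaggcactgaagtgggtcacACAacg
Gm25395: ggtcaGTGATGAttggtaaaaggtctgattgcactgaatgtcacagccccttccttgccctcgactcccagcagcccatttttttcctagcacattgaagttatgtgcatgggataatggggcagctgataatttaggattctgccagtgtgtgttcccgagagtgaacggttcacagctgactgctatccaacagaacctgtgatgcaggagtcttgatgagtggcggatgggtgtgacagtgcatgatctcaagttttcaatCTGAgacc

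Rnu3b2 lies at chr11:87471368-87471582 on the plus strand, inside an intron of Tex14. The U17 RNAs Snora73a (chr4:132352775-132352979) and Snora73b (chr4:132352322-132352526) lie on the minus strand within Snhg3, a non-coding host gene, and differ from each other by an edit distance of 7 bases over 205 (96.6% identity). Gm26447 (chr16:23111301-23111429, plus strand) lies within Eif4a2, which encodes a translation initiation helicase, inside an exon of a transcript annotated there with a retained intron. Gm26397 (chr8:126944847-126944980, minus strand) is intronic in Tomm20, a receptor of the mitochondrial import machinery, Snora7a (chr6:115807975-115808114, minus strand) lies inside an annotated exon of Rpl32, and Gm22748 (chr12:17546146-17546281, plus strand) is intronic in Odc1, which encodes ornithine decarboxylase. Scarna10 (chr6:125186359-125186683, minus strand) lies in Ncapd2 and Gm25395 (chr1:87776938-87777209, plus strand) in an intron of Atg16l1.

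The ACA end was found in 59 of the 106 RNAs, against 21.1% of the 1414 snoRNA and scaRNA genes with a sequence and 0.995% of 1306 snRNA sequences. The pair NTGATGA and CTGA was found in 19 of the 106, against 13.5% of those 1414 genes and in 0 of the snRNA sequences. The search read the printed strand alone, and no match says only that these letters are not in these windows. Among the 47 RNAs whose name gives no box, 32 had the ACA end and 4 the other pair; among the 27 with an H/ACA name (Snora), 21 had the ACA end, and among the 13 with a C/D name (Snord), 9 had the pair. The RNAs were long for their type: 9 of the 332 genes under 100 bases reached the level of 5 (2.71%), 73 of 1023 genes of 100 to under 150 bases (7.14%), and 24 of 59 genes of 150 bases or more (40.7%). How RNAs shorter than the 100 base reads were recovered in these libraries was not tested.

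At the threshold, Snord32a (highest mean 5.02), Gm25636 (5.55) and Gm22786 (5.65) were just inside, and Gm22362 (4.95), Rnu73b (4.59) and Gm23751 (4.59) just outside. Of the 1416 genes, 1040 were listed at 0 in every library, and the 106 held 99.4% of the summed level of both types in liver. In the values of these RNAs 1 read was worth 0.754 to 1.49 units in each library, since all of their values below 100 reads were whole multiples of such a step (tolerance 0.02 read), so a level can be read as close to a number of reads. Summed over the 106 RNAs this gave 19927 to 33172 reads in a liver library, 18144 to 25140 in kidney and 7577 to 15054 in the time course. RNAs with a level of a few reads therefore have a large counting error.

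Library totals were 24.1 to 27.5 M normalized counts in liver, 25.1 to 27.8 M in kidney and 16.9 to 19.9 M in the time course. Nudt12 itself had a level of 986 to 1301 in wild-type and 211 to 235 in knockout livers, 1512 to 1583 against 261 to 348 in kidney, and 613 to 1180 against 177 to 254 in the time course, so no library went against its label. Hepatocyte genes marked the livers (Alb, the gene of serum albumin, at 782282 to 1410850 in the liver cohort), while the kidney tubule genes Aqp2 and Slc5a2 were at or near 0 there. Other listed tubule genes were not: 4 of 5 proximal tubule genes had a mean of 1 or more in the liver cohort. So did 1 of 3 thick limb and collecting duct genes, and in the time course 1 of 5 and 0 of 3 did.

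The most abundant RNA per length in liver was Rnu3b2, at 2270 units per 100 bases, followed by Gm22988 of Eif4a1 at 1371, Snora73a at 908 and Gm25395 at 778. The 6 RNAs with the highest means held 44.5% of the summed level in the time course, 49.0% in liver and 44.3% in kidney. RNAs of 1 host gene stood at unequal levels. In Eif4a2, Gm26447 was at 459 units per 100 bases in liver, Snora81 at 50.5 and Gm24616 at 15.2, and in Eif4a1, Gm22988 was at 1371, Gm25835 at 176 and Gm24029 at 5.98. Gm22988 shares 97.2% of its bases with Gm25291 of Sec24a, and 26 of the 106 RNAs have a copy at 95% identity or more, so the split of reads among such copies is uncertain.

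In liver, the RNAs were on the whole higher in the knockout libraries, but no single RNA passed the test. Of 103 tested, 95 had a fold change above 0, where 50.3% of the 19088 genes tested did. Their median log2 fold change was 0.54, with quartiles of 0.31 and 0.79, against a median of 0.00 for all genes. In limma with Benjamini-Hochberg adjustment 0 of the 103 passed an adjusted p of 0.05, and 19 had an unadjusted p under 0.05, all of them higher in the knockouts; over all genes 0.0157% passed, 7.99% had an unadjusted p under 0.05, and 3.89% were higher and 4.11% lower at that level. In 26 of the 103 every knockout library was above every wild-type library, where 7.07% of all genes were; the reverse held for 1, Gm22009, where 6.86% of all genes were.

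**Figure D1:**
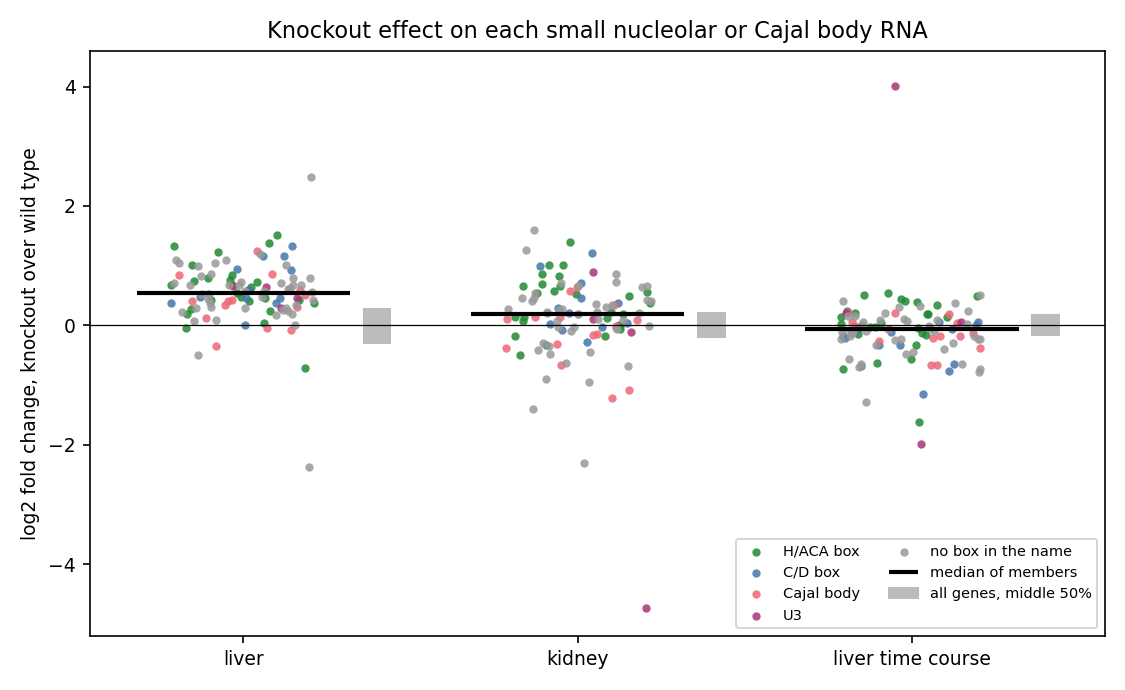
Log2 fold change of each tested RNA (points, coloured by the class in its name) in liver, kidney and the liver time course, with the median of the RNAs as a black line and the middle 50% of all genes as a grey bar. The liver median of 0.54 lies above the grey bar, and the kidney and time course medians of 0.18 and -0.07 lie within theirs.

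Gm26447 had the smallest p in liver. Its level was 427, 433 and 436 in the wild-type libraries and 727, 673 and 852 in the knockouts. The wild-type libraries lay close together and all 3 knockouts stood above them (432 ± 4.61 against 751 ± 91.7, SD, n = 3 each). The log2 fold change was 0.79 (SE 0.16, limma adjusted p = 0.246). In the authors' deposited table Gm26447 has a log2 fold change of 0.70 with an adjusted p of 0.00395, the smallest among these RNAs in that table. It is the only 1 under 0.05 in liver, of 96 of these RNAs with an adjusted p there. The share of all genes under 0.05 in the authors' column was not counted.

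Gm26397 was at 81.3, 51.3 and 66.1 in the wild-type and 135, 124 and 149 in the knockout livers, with no overlap and a log2 fold change of 1.05 (SE 0.26, limma adjusted p = 0.388). Snora7a, an H/ACA guide, was at 26.1, 24.7 and 38.6 against 73.5, 56.3 and 100, again with every knockout above every wild type. Its log2 fold change was 1.32 (SE 0.34, limma adjusted p = 0.411). Snord22, a C/D RNA within Snhg1, was at 282, 240.4 and 315 against 336, 454 and 482, with no overlap and a log2 fold change of 0.59 (SE 0.20, limma adjusted p = 0.572). The Cajal body RNA Gm25492 was at 11.0, 11.4 and 20.9 against 34.4, 36.9 and 31.2. These groups did not overlap either, although the levels were low, and the limma adjusted p was 0.515.

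The RNAs of ribosomal RNA processing were higher in the knockout livers in 9 of 9 tested entries of their list, with a median log2 fold change of 0.54. Of all RNAs described here 95 of 103 were higher, with the same median of 0.54. Some of the 9 entries are near copies of each other, so they do not stand for 9 separate RNAs. Rnu3b2, the main U3 gene, differs from Rnu3b1 by an edit distance of 1 base (99.5% identity), so the split of reads between them is uncertain. Rnu3b1 was at 884, 225 and 929 in the wild-type and 952, 1103 and 685 in the knockout livers. Rnu3b2 was at 2506, 3730 and 5565 in the wild-type and 6023, 5097 and 6362 in the knockout livers. Wild-type library 3 overlapped the knockouts, and the log2 fold change was 0.64 (SE 0.27, limma adjusted p = 0.622). Snora73b of the U17 pair was at 861, 923 and 1705 against 1452, 1407 and 2042, where the same wild-type library stood within the knockout range. Its log2 fold change was 0.54 (SE 0.28, limma adjusted p = 0.662). Snora73a, the other of the pair, was at 1375, 1538 and 2190 against 2282, 1782 and 2007, and wild-type library 3 overlapped the knockouts there too. Snord118 (U8) had a log2 fold change of 0.47 (SE 0.38, limma adjusted p = 0.774) and Snord13 (U13) one of 0.92 (SE 0.61, limma adjusted p = 0.727).

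By class, 12 of 12 tested RNAs with a C/D name, 25 of 27 with an H/ACA name and 11 of 14 with a Cajal body class were higher in the knockout livers, with median log2 fold changes of 0.53, 0.60 and 0.41. By level, the 36 RNAs with a mean of 100 or more had a median of 0.53, the 26 between 20 and 100 one of 0.50 and the 41 tested below 20 one of 0.65. The Cajal body RNA Gm22009 went the other way, at 943, 790 and 1024 in the wild-type and 776, 670 and 720 in the knockout livers. Its log2 fold change was -0.34 (SE 0.16, limma adjusted p = 0.642). Gm23925 (-2.37, SE 1.38), Snora30 (-0.71, SE 0.45) and Gm22661 (-0.51, SE 0.70) had the next smallest p among the RNAs below 0, with limma adjusted p of 0.694, 0.717 and 0.877. As each library was left out, Gm23925 ran from -4.20 (without knockout library 3) to -1.45 (without knockout library 1 or 2), and Snora30 from -0.97 (without wild-type library 2) to -0.41 (without wild-type library 1).

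**Figure D2:**
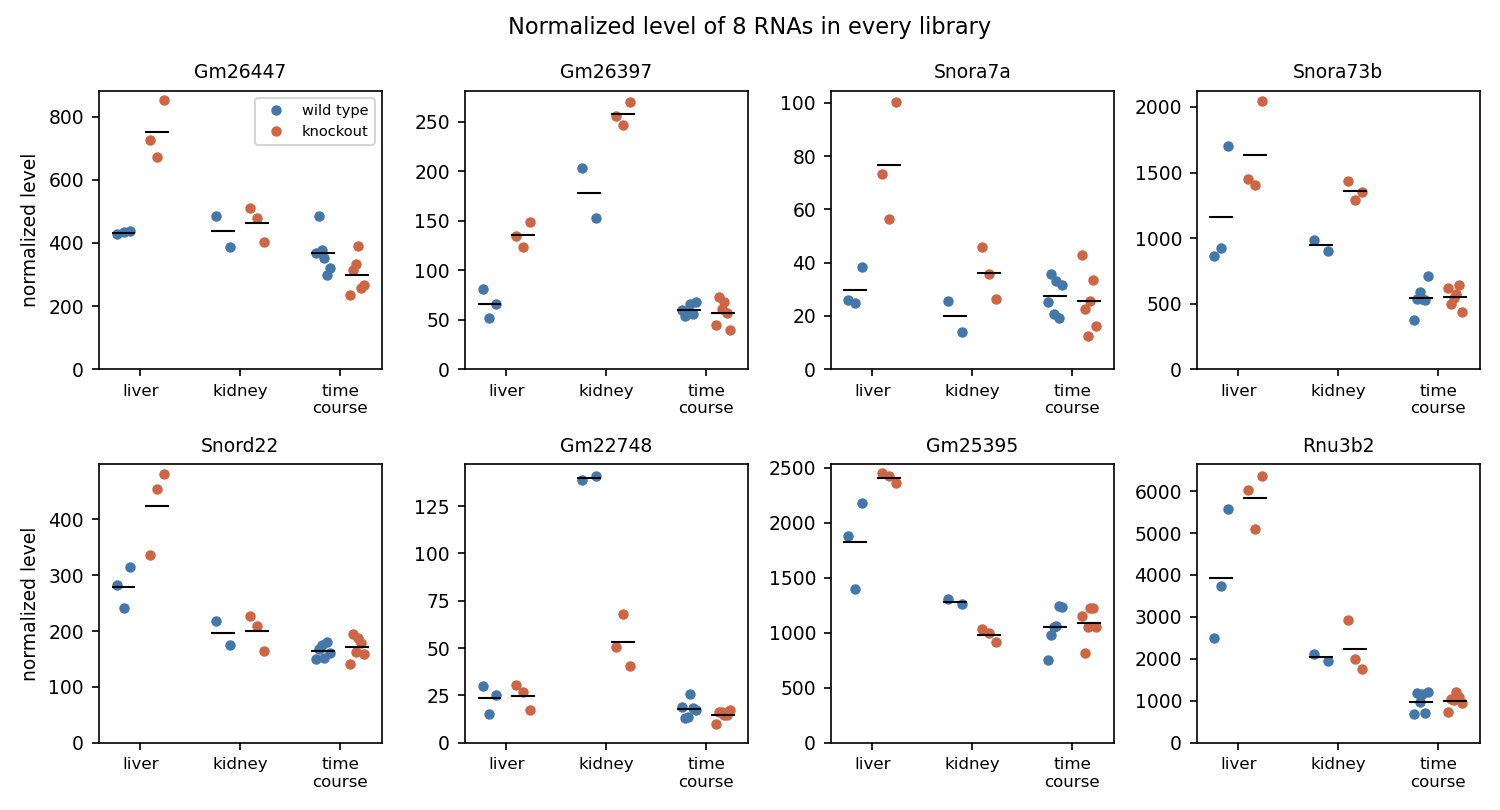
Normalized level of 8 RNAs in every library of liver, kidney and the liver time course; each point is a library and each black line a group mean. Gm26447 separates the genotypes in the liver cohort at 427 to 436 against 673 to 852, and Gm22748 in kidney at 139 to 141 against 40.6 to 67.8.

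Other small RNAs of the liver cohort were compared beside the 106 RNAs. The 106 RNAs took 827, 787 and 1046 ppm of the library's summed level in the wild-type and 1171, 1205 and 1323 ppm in the knockout livers, with wild-type library 3 the closest to the knockouts. The means were 887 ± 140 and 1233 ± 79.9 (SD, n = 3 each), a ratio of 1.39 (exact permutation test, two-sided p = 0.1, the smallest that 3 against 3 libraries allow). The snRNA genes, which are no snoRNAs, took 1058, 1150 and 1753 ppm against 1674, 2175 and 2314, so the same wild-type library was high there too. Divided by the summed snRNA level, the summed level of the 106 RNAs was 0.688 ± 0.0922 in wild-type and 0.609 ± 0.0794 in knockout livers (n = 3 each, exact permutation p = 0.3). The RNA component of RNase MRP, Rmrp, was at 4623, 5250 and 8044 in the wild-type and 10977, 11750 and 8941 in the knockout livers. Another ribozyme gene, Rpph1, overlapped, at 5816, 9260 and 15801 against 17846, 22076 and 11366. The summed ribozyme genes overlapped too, at 408, 604 and 869 ppm against 1182, 1284 and 834 ppm. Among tested snRNA genes 32 of 48 were higher in the knockouts, with a median log2 fold change of 0.34, against 31 of 55 misc_RNA genes (median 0.15) and 30 of 63 miRNA genes (median -0.02). Rn7sk, the 7SK RNA, overlapped between the genotypes at 126071 to 153337 against 142257 to 204698. The part of the higher snRNA and Rmrp levels in the result on snoRNAs was not tested. In bulk tissue, fewer cells with an RNA and less of the RNA per cell cannot be told apart.

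Wild-type library 3 was the highest of the wild types for 68 of the 103 RNAs, and wild-type libraries 1 and 2 were the lowest of all 6 for 40 and 41. Without wild-type library 3 the median log2 fold change was 0.75, and without wild-type library 2 it was 0.41. Rn7s1, the 7SL RNA, took 8.72 to 12.5% of the wild-type and 9.41 to 15.2% of the knockout libraries. The liver macrophage genes of a marker list, in 4 of 4 cases, had log2 fold changes below 0 (median -0.39), and the 5 hepatocyte genes (median 0.25) and 2 of 2 blood genes (median 0.45) lay above 0, as did 1 of 3 endothelial genes (median -0.27); the part of cell makeup was not tested.

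**Figure D3:**
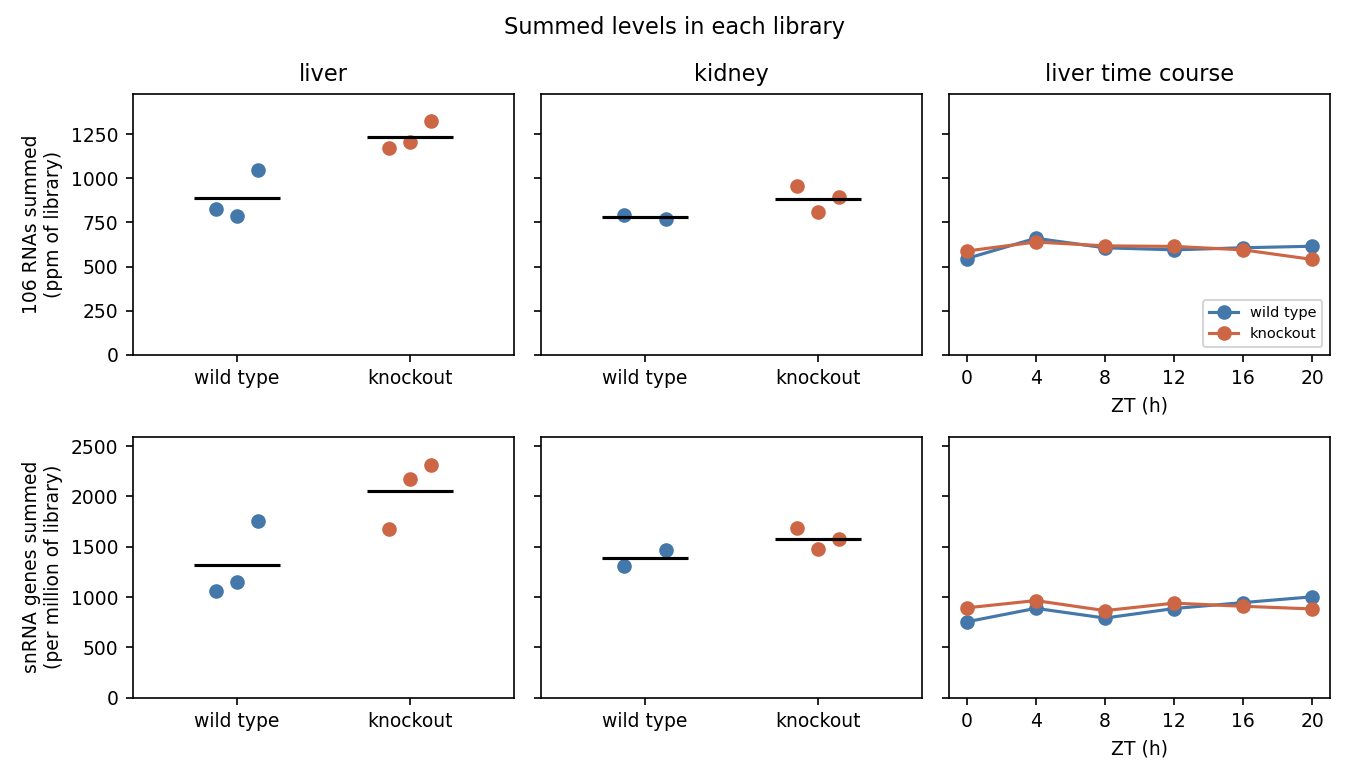
Summed level of the 106 RNAs (top) and of snRNA genes (bottom) in ppm of each library's summed level; points are libraries, black lines group means, and the time course is plotted against ZT in hours. In liver the knockout libraries lie at 1171 to 1323 ppm for the 106 RNAs, above the wild types at 787 to 1046, and in the time course both genotypes lie between 540 and 660.

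In kidney the RNAs were split. Of 104 tested, 68 had a fold change above 0, where 50.3% of 22224 genes did, and the median log2 fold change was 0.18. Knockout library 1 was the highest of the 5 for 57 of the RNAs, against 14 and 11 for the other knockouts, and without it the median was 0.11 with 63 of 103 above 0. In limma 0 passed an adjusted p of 0.05 (0.0045% of all genes) and 13 had an unadjusted p under 0.05, 8 of them higher and 5 lower (5.4% of all genes, 2.72% higher and 2.67% lower). Every knockout library was above both wild types in 25 RNAs and below both in 8, where 9.9 and 10.6% of all genes were. The summed RNAs took 795 and 769 ppm in the wild-type and 955, 808 and 894 ppm in the knockout kidneys, a ratio of 1.13 (exact permutation test, two-sided p = 0.2, the smallest possible here). The snRNA genes took 1308 and 1472 ppm against 1685, 1473 and 1575 ppm, so knockout library 2 was level with wild-type library 2. Of 74 tested snRNA genes 37 were above 0, with a median log2 fold change of -0.0026. The ribozyme genes took 1041 and 1213 ppm against 1545, 1501 and 1467 ppm and were higher in every knockout kidney. Divided by the summed snRNA level, the summed RNAs were at 0.565 ± 0.0602 (n = 2) in wild-type and 0.561 ± 0.0107 (n = 3) in knockout kidneys (exact permutation p = 1.0). Of the marker lists, the plasma cell genes had the lowest median in kidney, at -1.40 with 2 of 2 below 0 (Jchain -1.87, unadjusted p = 0.0222, and Ighm -0.92, unadjusted p = 0.361, as log2 fold changes), and their part in the result was not tested.

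Gm22748 had the smallest p in kidney. It was at 139 and 141 in the wild-type and 50.8, 67.8 and 40.6 in the knockout kidneys, which did not overlap. The log2 fold change was -1.41 (SE 0.28, limma adjusted p = 0.628), and the authors' deposited table gives -1.17, on its own scale, with an adjusted p of 0.0262. Its host Odc1 had a log2 fold change of -0.45 in kidney (unadjusted p = 0.037). Of 75 tested hosts 0 passed an adjusted p of 0.05 in kidney, and 6 had an unadjusted p under 0.05 (5.4% of all genes). In liver Gm22748 was at 30.1, 15.2 and 25.4 against 30.5, 26.6 and 17.5, and the genotypes overlapped.

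The U17 pair was higher in the knockout kidneys. Snora73b was at 987 and 903 against 1435, 1289 and 1350, a log2 fold change of 0.52 (SE 0.12, limma adjusted p = 0.687), and Snora73a at 1515 and 1282 against 2397, 1864 and 2032, one of 0.58 (SE 0.15, limma adjusted p = 0.841). Neither RNA overlapped between the genotypes, and Snora73b has an adjusted p of 0.0246 in the authors' deposited table. Snora73b and Gm22748 are the 2 under 0.05 there, of 94 of these RNAs with an adjusted p. The share of all genes under 0.05 in that column was not counted. Scarna10 was at 344 and 330 against 512, 506 and 491, also without overlap, with a log2 fold change of 0.58 (SE 0.13, limma adjusted p = 0.707). Gm25776, at 237 and 173 against 309, 338 and 303, followed with a log2 fold change of 0.64 (SE 0.19, limma adjusted p = 0.841), which was 0.41 without wild-type library 2 and 0.87 without wild-type library 1.

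The Cajal body RNA Gm25395 was lower in the knockout kidneys, at 1307 and 1257 against 1030, 1001 and 916, a log2 fold change of -0.39 (SE 0.11, limma adjusted p = 0.841). In the livers it was at 1883, 1395 and 2184 against 2449, 2421 and 2361, so the knockouts stood above the wild types there and below them in kidney. The difference of the 2 effects was 0.81 (SE 0.23), with a limma adjusted p of 0.873. By class, 21 of 27 H/ACA and 9 of 12 C/D RNAs were above 0 in kidney (medians 0.38 and 0.25), against 7 of 15 of the Cajal body class (median -0.02).

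Liver and kidney share no libraries, but the labels do not say whether both organs came from the same mice, and the joint fit paired nothing. Of the 26 RNAs with every knockout above every wild type in liver, 9 showed the same in kidney (34.6% of the liver list and 36.0% of the kidney list), against 25 of all 104 of these RNAs tested in kidney. Over the 18354 genes tested in both tissues 1.44% were of this kind, which is 19.6% of the liver and 12.0% of the kidney list of all genes. The 9 RNAs were Gm25492, Gm25788, Gm26079, Gm26397, Snora57, Snora70, Snora7a, Snord21 and Snord32a. Gm26397 was at 203 and 152 in the wild-type and 256, 246 and 270 in the knockout kidneys. Taken as the liver effect minus the kidney effect, 77 of 103 RNAs were above 0 (50.5% of all genes), with a median of 0.42. In limma 0 of them passed the test (0.00545% of all genes), and 5 had an unadjusted p under 0.05, each above 0 (4.41% of all genes, 2.09% above and 2.32% below).

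In the time course the RNAs did not lean to the knockouts. Of 105 tested, 41 had a fold change above 0, where 49.6% of 18702 genes did, and the median log2 fold change was -0.07. In limma with time as a factor 0 passed an adjusted p of 0.05 (0.00535% of all genes), and 6 had an unadjusted p under 0.05, 1 of them higher and 5 lower (5.99% of all genes, 2.97% higher and 3.02% lower). The knockout was above the wild type at all 6 times in 1 RNA, Snora70, and below it at all 6 times in 5 (Gm25636, Snord89, Snora47, Scarna17 and Snora26), where 1.6 and 1.86% of all genes were. The summed RNAs took 545 to 660 ppm in the wild-type and 540 to 639 ppm in the knockout libraries (exact permutation of the 6 pairs, two-sided p = 0.719), and the knockout was higher at 3 of 6 times. Divided by the summed snRNA level, they were at 0.693 ± 0.0603 in wild-type and 0.659 ± 0.0322 in knockout libraries (SD, n = 6 each). That ratio was higher in the knockout at 1 of 6 times (exact permutation of the 6 pairs, two-sided p = 0.0938).

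Gm26447, high in the knockout livers of the younger mice, ran from 300 to 485 with a median of 360 in the wild-type and from 235 to 390 with a median of 290 in the knockout time course. The knockout was higher at 1 of 6 times, and the log2 fold change was -0.30 (SE 0.12, limma adjusted p = 0.828). The effect in the liver cohort minus that in the time course was 1.09 (SE 0.19), with a limma adjusted p of 0.0599, and without wild-type liver library 1 this adjusted p was 0.0448, the lowest over its alternatives (highest 0.162). Gm26397 ran from 53.7 to 67.5 (median 58.3) in the wild types and from 39.9 to 73.0 (median 58.9) in the knockouts. Its difference between the cohorts was 1.14 (SE 0.31, limma adjusted p = 0.223).

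Over the RNAs, 88 of 102 had a larger effect in the liver cohort than in the time course (50.6% of all genes), with a median difference of 0.62. In limma 0 of the 102 passed (0.0388% of all genes) and 23 had an unadjusted p under 0.05, each with the larger effect in the liver cohort (10.4% of all genes, 5.35% above and 5.08% below 0). The cohorts differ in age and in the handling described, and their tables were normalized separately, so these cannot be told apart. In the time course 2 of 13 RNAs with a C/D name (median -0.22), 5 of 15 of the Cajal body class (median -0.12), 15 of 27 with an H/ACA name (median 0.03) and 3 of 4 U3 entries (median 0.13) were above 0. A difference between classes was not tested.

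Snora24, an H/ACA guide in Snhg8, was at 3.58, 5.97, 2.98, 1.51, 1.68 and 0 in the wild-type time course and was listed at 0 in all 6 knockout libraries. Its unadjusted p of 0.00585 was the smallest for the time course, with a limma adjusted p of 0.767. In the liver cohort it was at 7.02, 11.4 and 0 against 10.5, 6.14 and 3.89, and the genotypes overlapped. Snora70 of Rpl10 ran from 11.3 to 20.8 (median 12.4) in the wild-type and from 13.4 to 25.7 (median 21.6) in the knockout time course, a log2 fold change of 0.51 (SE 0.25, limma adjusted p = 0.851).

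The U3 gene Rnu3a showed how a result can rest on the annotation. Its locus at chr10:40258467-40258680 carries 2 entries that differ by an edit distance of 1 base (99.5% identity), and the level moved between them from library to library. In the wild-type time course 1 entry was at 0, 0, 202, 0, 43.6 and 0, and the other at 210, 256, 0, 231, 163 and 293. Taken alone, the first entry had a log2 fold change of 4.01 (SE 1.27, limma adjusted p = 0.815) in the time course and of -4.74 (SE 2.13) in kidney. Summed, the entries of the time course were at 233 ± 35.5 for wild type and 245 ± 46.0 for knockout (n = 6 each, higher in the knockout at 4 of 6 times), and at 400 ± 37.1 (n = 2) against 441 ± 140 (n = 3) in kidney (exact permutation p = 1.0). In liver the sum was 829 ± 279 against 1056 ± 113 (n = 3 each, exact permutation p = 0.3).

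**Figure D4:**
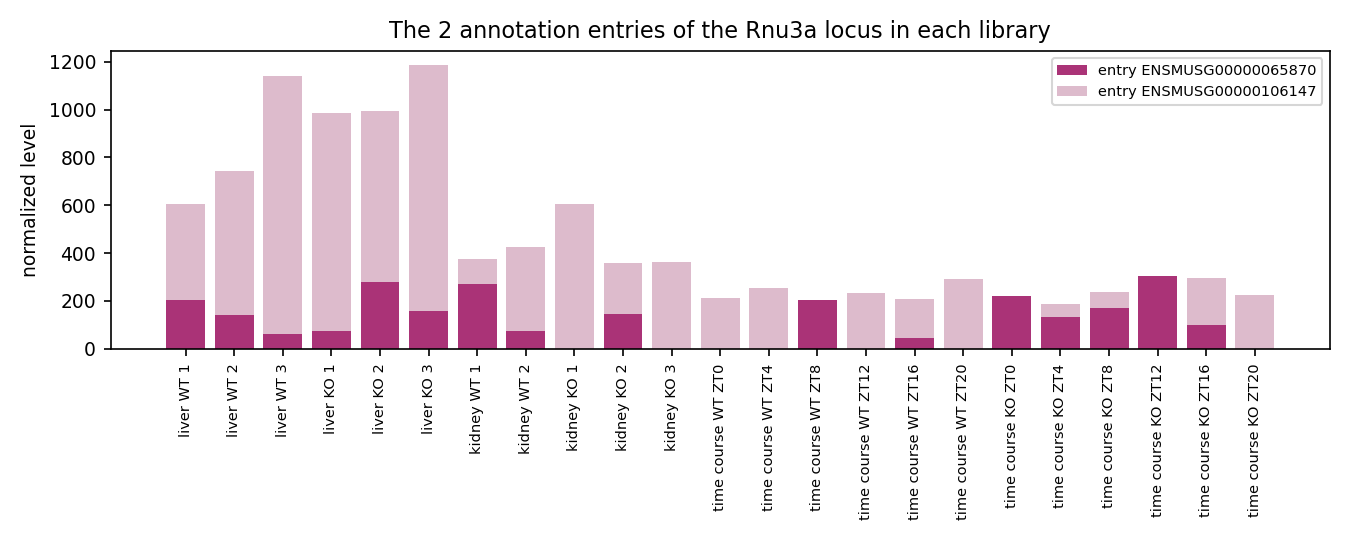
Normalized level of the 2 annotation entries of the Rnu3a locus, stacked, in each library. The split changes between libraries while the sum stays between 186 and 302 in the time course.

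Around the day, 0 of 105 RNAs passed the test for a 24 h rhythm, where 5.8% of 18702 genes did, and 6 had an unadjusted p under 0.05, where 21.0% of all genes did. Gm23262, which lies in the translation factor gene Eif4g2, had the smallest p, with an amplitude of 0.32 (log2) and a fitted peak at 10.1 h after lights on (limma adjusted p = 0.131). Gm25395, Scarna10 and Gm26447 followed, with amplitudes of 0.23, 0.46 and 0.24 and limma adjusted p of 0.178, 0.213 and 0.238. For a difference in rhythm between genotypes 0 of 105 passed (0.0% of all genes) and 2 had an unadjusted p under 0.05 (4.78% of all genes). The host Odc1 was rhythmic, with an amplitude of 0.71 and a peak 17.7 h after lights on (limma adjusted p = 0.00018), while its intronic RNA Gm22748 had an amplitude of 0.19 (limma adjusted p = 0.776). Mia2 and Ipo7 were the other rhythmic hosts, with limma adjusted p of 0.0107 and 0.0377.

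Of the 106 RNAs, 95 lie within another gene on the same strand, in 77 host genes, 57 in an intron, 27 inside an annotated exon and 11 partly so. Reads of an RNA inside an annotated exon can be split between it and its host. The hosts had no such lean: in liver 37 of 75 tested hosts were above 0 with a median log2 fold change of -0.00, where 86 of 92 tested RNAs with a host were above 0 with a median of 0.57. In 77 of 89 pairs the RNA had the higher fold change. Across the 89 pairs the fold changes had a Pearson r of 0.12 in liver, -0.02 in 90 pairs in kidney and -0.17 in 91 pairs in the time course, as a description over genes that share libraries and in part hosts. In limma 0 of 75 hosts passed in any of the 3 tables, and in the order liver, kidney, time course 2, 6 and 2 had an unadjusted p under 0.05 (7.99, 5.4 and 5.99% of all genes), with 5 of the 6 in kidney lower and all those of liver and the time course higher. The 11 RNAs with no host, among them Snord118, Snord13 and Scarna2, had a median of 0.46 in liver with 9 above 0.

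**Figure D5:**
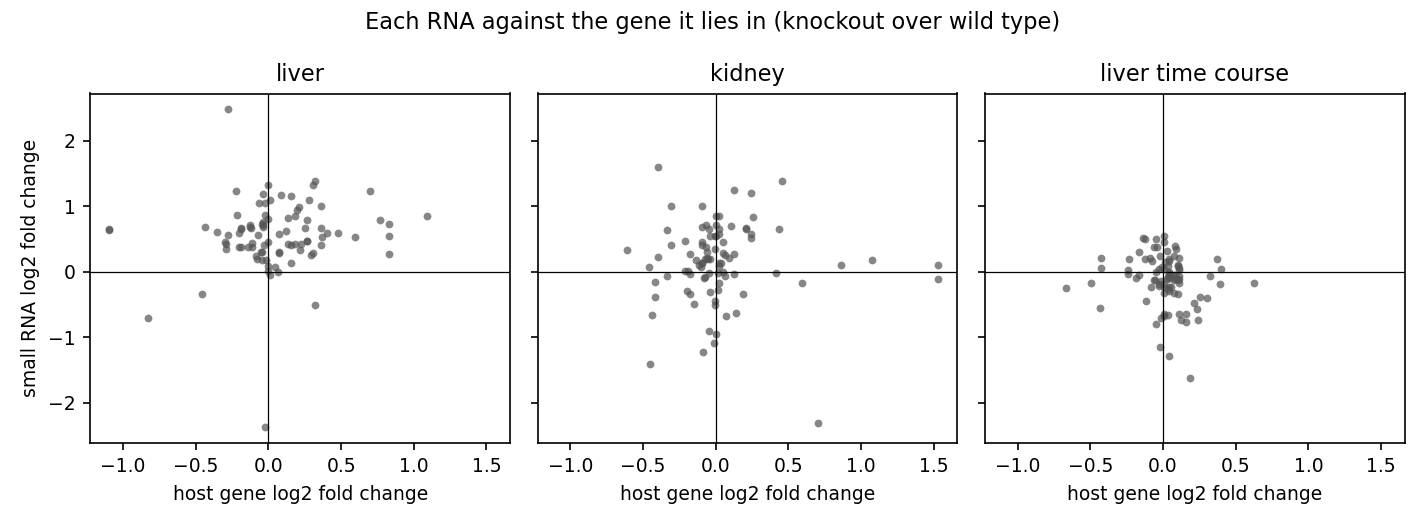
Log2 fold change (knockout over wild type) of each RNA against that of the gene it lies in, in liver, kidney and the liver time course; each point is 1 RNA. In liver most points lie above the horizontal line at 0 and are spread to both sides of the vertical line.

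The protein genes of the pathway gave no call. Of 50 genes in 5 lists (core proteins of both particle types, Cajal body proteins, assembly factors, and enzymes that trim or degrade small RNAs), 0 passed in any of the 3 tables in limma, and in that order 1, 2 and 5 had an unadjusted p under 0.05 (7.99, 5.4 and 5.99% of all genes). Fbl (fibrillarin) had a log2 fold change of 0.41 in liver (SE 0.31, unadjusted p = 0.215) and Dkc1 (dyskerin) one of 0.22 (SE 0.16, unadjusted p = 0.211). Xrn2, a nuclear 5′ to 3′ exonuclease, had the smallest p in liver, with a log2 fold change of 0.37 (SE 0.13, unadjusted p = 0.022), and was below 0 in the time course at -0.28 (SE 0.07, unadjusted p = 0.00357), a smaller p than in liver. Of the 50, 5 were rhythmic in the time course, where 5.8% of all genes were: Usp50, Nolc1, Hsp90ab1, Xrn2 and Dbr1, the enzyme that opens intron lariats (amplitude 0.42, limma adjusted p = 0.0390).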

How the data were processed

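Libraries were made from Trizol-extracted total RNA (500 ng) with a stranded kit after ribosomal RNA depletion and sequenced as single reads of 100 bases, per the labels' protocols. The authors deposited normalized counts as a signal that is never negative, in 3 separately normalized tables, per the file headers. The submitters' processing notes name GRCm38, DESeq2 1.24.0, DESeq, Salmon 0.12.0 and R 3.6.0, without saying what each did. Columns of a log2 effect and an adjusted p-value, computed by the authors, are deposited beside them. Whole reads came out for the RNAs described but for 22.3 to 50.1% of low values of all genes, so no test on counts was run. The third wild-type kidney sample was not analysed here.

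Each comparison was fitted with limma 3.58.1 (R 4.3.3) on log2(value + 1), keeping genes whose mean was 1 or more, with a trend in the prior variance, two-sided, adjusted over all genes tested (threshold 0.05). Fold changes are on that scale, which understates low genes. Time course fits had the 6 times as a block, because the labels give both genotypes the same times; rhythm was fitted with a cosine and sine of 24 h plus genotype, and differences of effects as interactions in a joint fit. Numbers of liver and kidney replicates pair nothing. Fits were checked on simulated data. Positions, hosts and sequences came from GENCODE vM21 (GRCm38), all 106 RNAs matching by identifier; identity was computed with edlib 1.3.9.post1. The RNAs and gene lists were chosen with earlier results of these data known. The rule for naming took the 6 most abundant RNAs per table, the RNAs past the threshold or else the 4 with the smallest p in each direction of a comparison, the scaRNAs, listed RNAs of ribosomal RNA processing, core proteins and up to 4 other listed proteins, and the hosts of these; Snord22, Snord89, Snord21, Snora26, Snora57 and other RNAs outside it were chosen after their values were seen. Alternatives changed the pseudocount, filter, trend, scaling, libraries, time points and block.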

Additional observations from a re-analysis of the deposited data

Results flagged for a closer look

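Of 55 groups of 6 time course libraries checked for a library that stands apart, 4 were marked, and chance marks about 1 in 20. Gm25776 was at 99.2 in the knockout at ZT0, against 196 to 247 in the other knockouts. Gm22748 was at 9.75 in the same library, against 14.5 to 17.3. The first Rnu3a entry was at 202 in the wild type at ZT8, against 0 to 43.6 in the other wild types, where the second entry was at 0. Snora70 was at 20.8 in the wild type at ZT20, against 11.3 to 14.3.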

How the results depend on the processing

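Calls among the RNAs stayed at 0 under every alternative run except 1: without wild-type liver library 1, 1 RNA (Gm26447) passed for the liver cohort effect minus the time course effect. With no replicate block for the times, the time course again gave 0 calls, so the pairing by time changed no call. The median of -0.07 and the 41 RNAs above 0 could not change, because each time held 1 library of each genotype. The median log2 fold change in liver ran from 0.41 to 0.75 as each library was left out (0.75 without wild-type library 3), that in kidney from 0.11 to 0.23, and that in the time course from -0.11 to -0.00. The median of the liver minus kidney effects ran from 0.25 (without wild-type liver library 2) to 0.58 (without wild-type liver library 3), and that of the liver minus time course effects from 0.48 to 0.75. With a mean of at least 10, fewer RNAs were tested: 25 of 62 were above 0 in the time course and 52 of 60 for the liver minus time course effects. Gm22661 in liver ran from -0.89 to 0.088 as libraries were left out, changing sign without knockout library 3. Scaling to the protein-coding sum left 98 of 103 RNAs above 0 in liver (median 0.59) and quantile normalization 98 (median 0.54). Low read numbers limit what can be said of the RNAs below 20.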
